A study of Mus musculus with 12 samples.

Results

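Transcript levels were followed for 10 mouse genes whose RNA is known to be higher in old than in young hematopoietic stem cells, namely Sult1a1, Art4, Enpp5, Plscr2, Ehd3, Clu, Gpr183, Neo1, Alcam and Nupr1. They were picked by symbol from the 35275 genes of the deposited expression table, with earlier results of these data in view. Which values chose them is not recorded, and the contrast of the untreated groups was taken to be behind the choice, so their levels in untreated knockout and untreated wild-type cells are given as a description without a test. The libraries came from C57BL/6 mice and were labelled primary hematopoietic stem cells, sorted by flow cytometry. The 4 groups of 3 libraries each were Thpo-/- mice on Romiplostim for 10 days (treated KO), untreated Thpo-/- mice (untreated KO), Thpo+/+ mice on Romiplostim for 10 days (treated WT) and untreated Thpo+/+ mice (untreated WT). Thpo encodes thrombopoietin, a cytokine of stem cells and megakaryocytes, and Romiplostim is a drug that mimics its action. It was injected intravenously at 100 µg/kg daily, and the protocol names PBS for controls although their label reads untreated. The labels give no age for any mouse, no sorting gate, no sex and no statement that the 3 libraries of a group came from separate animals, so p-values measure the spread between these libraries, which may be technical.

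Old stem cells are more numerous, engraft less well per cell and give rise to fewer lymphoid and more myeloid and platelet-lineage cells than young ones. A recurrent set of transcripts marks them across mouse studies, many encoding surface proteins or platelet-associated proteins, and the 10 genes belong to that set. Art4, Plscr2, Enpp5, Alcam, Neo1 and Gpr183 encode proteins of the cell surface or plasma membrane. Sult1a1 and Ehd3 encode a sulfotransferase and an ATPase of membrane recycling, and Clu and Nupr1 encode stress-associated proteins. Thrombopoietin signals through JAK2 and STAT5, a factor that binds the letters TTCNNNGAA.

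RefSeq gave a stretch of 250 bases upstream of the start site for 7 of the 10 genes (build GRCm38.p6). The 4 below are shown since Art4 was lower in knockout cells with or without the agonist, Nupr1 holds the STAT5 letters, and Sult1a1 and Ehd3 differed between treated and untreated wild-type cells. Capitals mark matches, on either strand, to TTCNNNGAA, to the GATA letters AGATAA, to the RUNX letters TGTGGT or to the E-box CANNTG, which overlap nowhere in these stretches. The RefSeq start of each of the 4 genes lies inside the longer gene span of GENCODE M21 given further on.
Art4, chr6:136857601-136857850, minus strand: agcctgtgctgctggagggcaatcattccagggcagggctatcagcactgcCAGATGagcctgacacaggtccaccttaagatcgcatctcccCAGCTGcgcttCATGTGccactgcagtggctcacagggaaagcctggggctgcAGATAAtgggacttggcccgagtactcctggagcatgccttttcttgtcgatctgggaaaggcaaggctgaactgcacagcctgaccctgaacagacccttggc
Nupr1, chr7:126625471-126625720, minus strand: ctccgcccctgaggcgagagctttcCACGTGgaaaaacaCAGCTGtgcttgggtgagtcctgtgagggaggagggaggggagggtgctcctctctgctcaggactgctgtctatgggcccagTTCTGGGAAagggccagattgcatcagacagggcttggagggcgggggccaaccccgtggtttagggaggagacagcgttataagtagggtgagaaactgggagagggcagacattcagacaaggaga
Sult1a1, chr7:126676419-126676668, minus strand: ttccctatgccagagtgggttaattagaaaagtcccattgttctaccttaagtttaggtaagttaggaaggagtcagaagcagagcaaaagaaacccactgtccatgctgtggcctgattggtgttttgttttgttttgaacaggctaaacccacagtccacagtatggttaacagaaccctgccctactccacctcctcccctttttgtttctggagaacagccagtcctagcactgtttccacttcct
Ehd3, chr17:73804591-73804840, plus strand: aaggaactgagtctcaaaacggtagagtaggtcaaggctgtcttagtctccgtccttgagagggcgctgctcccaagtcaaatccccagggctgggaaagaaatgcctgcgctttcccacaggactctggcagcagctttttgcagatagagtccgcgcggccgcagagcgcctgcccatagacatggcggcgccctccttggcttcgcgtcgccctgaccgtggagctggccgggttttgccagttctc
The Nupr1 stretch holds TTCTGGGAA, which lies 128 to 120 bases before the start, and 2 E-boxes, while the Art4 stretch holds AGATAA 104 to 99 bases before the start and 3 E-boxes. No match to the 4 motifs was found in the Sult1a1 or the Ehd3 stretch. Among 32851 mouse stretches of the same length, 7.02% hold the STAT5 letters, 9.99% the GATA letters, 14% the RUNX letters and 66.2% an E-box, so each match is common and is given as a description of the letters only.

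Libraries had 11262 to 12374 genes at 1 FPKM or more (fragments per kilobase of transcript, scaled to the depth of each library, as calculated by the authors). Their depth was estimated at 27.6 to 35.4 M fragments each. The search for it covered only 21 to 41 M, so these estimates cannot show that the libraries were alike in depth. Thpo was listed at 0 in 10 of 12 libraries and reached 0.0426 FPKM at most, so its level does not check the genotype labels. Of 10 stem cell markers, 8 averaged 1 FPKM or more in untreated KO, all but Fgd5 and Hoxb5, and all 10 did in each other group. Their summed level was 819 to 1295 FPKM in treated KO, 465 to 632 in untreated KO, 979 to 1308 in treated WT and 1343 to 1658 in untreated WT. All 9 B lineage markers averaged 1 FPKM or more in untreated KO, and their sum was 95.4 to 650 FPKM in treated KO, 1692 to 4209 in untreated KO, 67.2 to 70.3 in treated WT (Pax5 at 0) and 86.5 to 98.4 in untreated WT. All 8 macrophage markers likewise averaged 1 FPKM or more in untreated KO, and they summed to 85.1 to 114 FPKM in treated KO, 938 to 2712 in untreated KO, 13.8 to 22.4 in treated WT and 44.8 to 62.1 in untreated WT. Treated KO replicate 2 held the highest B lineage sum of its group, and untreated KO replicate 3 the highest myeloid sum of all libraries, so results within the knockout are also given without them. Y-linked genes were near 0 in all 3 treated KO libraries, in treated WT replicate 1 and in untreated WT replicate 2, and averaged 11.3 to 24.9 FPKM in the other 7, so sex and treatment cannot be told apart within the knockout. A fit with sex as a covariate takes its sex term from the wild-type libraries alone. Calls kept or lost in that fit therefore do not separate sex from treatment in the knockout. Each group was sequenced in its own run, so run and group cannot be told apart either. In bulk RNA, fewer cells of a type and less RNA per cell cannot be told apart.

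The 10 genes did not move as a block. Art4 and Plscr2 averaged 15.5 ± 3.91 and 4.54 ± 0.371 FPKM in treated KO, 12.4 ± 2.77 and 3.47 ± 1.40 in untreated KO, 42.0 ± 3.44 and 38.2 ± 10.6 in treated WT, and 42.5 ± 1.18 and 27.0 ± 11.2 in untreated WT (SD, n = 3 each), low in both knockout groups. Sult1a1 was high in untreated WT alone, at 126 ± 32.9 FPKM, against 7.34 ± 3.28 in treated KO, 18.1 ± 6.54 in untreated KO and 8.52 ± 1.88 in treated WT. Ehd3 was highest in treated WT, at 18.2 ± 0.397 FPKM, against 9.11 ± 3.38 in treated KO, 5.30 ± 1.35 in untreated KO and 6.91 ± 0.612 in untreated WT.

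**Figure D1:**
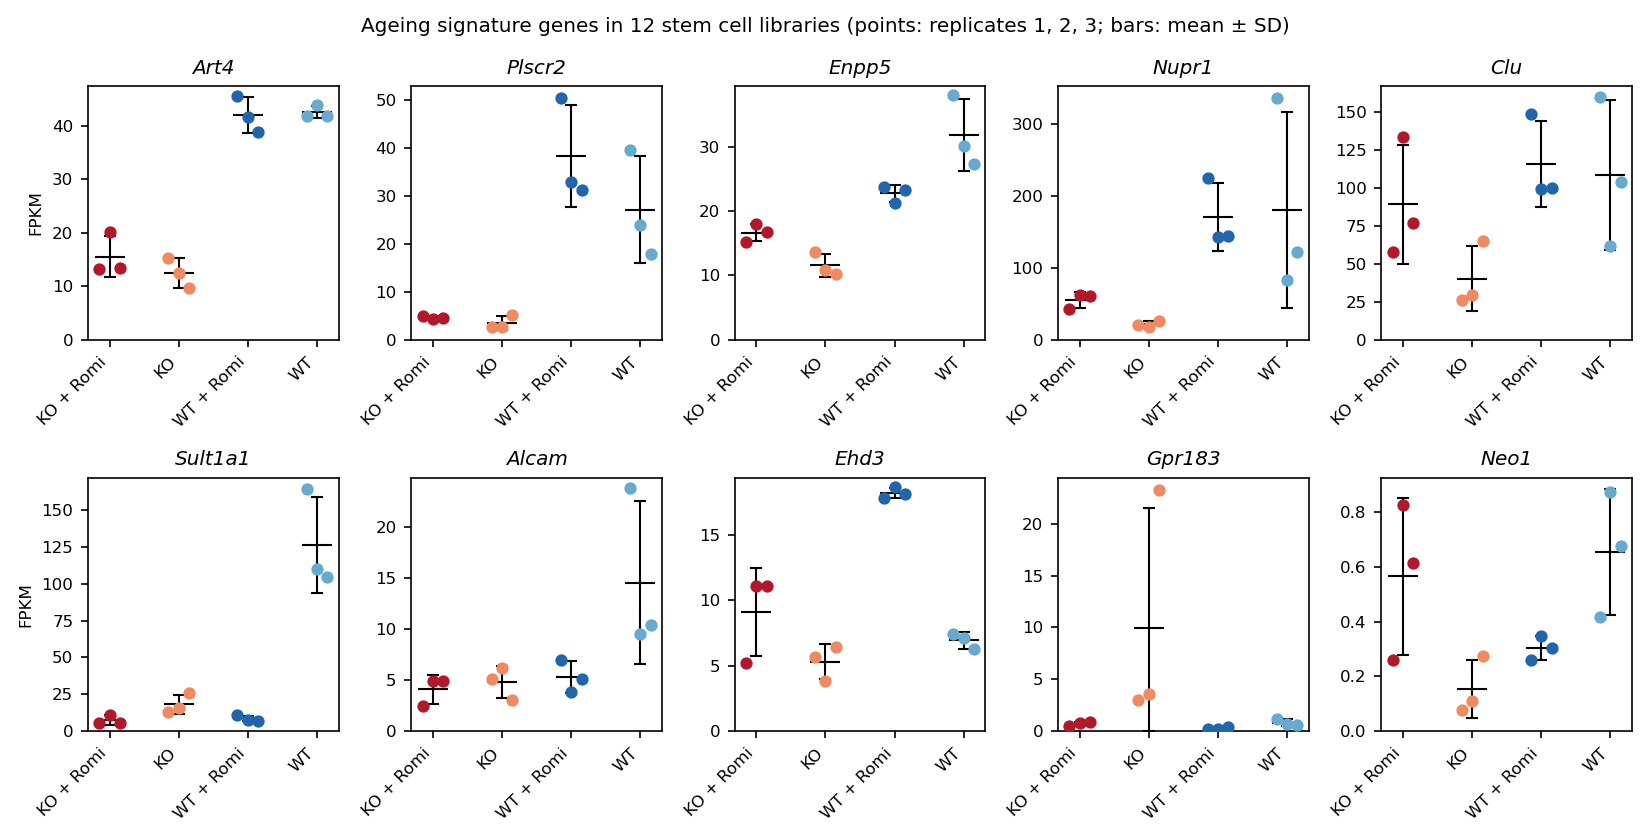
FPKM of each of the 10 genes (linear axis, a panel per gene) in treated KO, untreated KO, treated WT and untreated WT libraries, written KO + Romi, KO, WT + Romi and WT on the axis; points are replicates 1 to 3 from left to right, bars are the mean ± SD, and the lower arm of the untreated KO bar for Gpr183 is cut at 0. Art4 and Plscr2 sit low in all 6 knockout libraries, Sult1a1 stands above 100 FPKM in the 3 untreated WT libraries alone, and Ehd3 peaks in treated WT at 17.8 to 18.6 FPKM.

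Art4 (chromosome 6, 136848451 to 136857733, minus strand, mm10 with GENCODE M21 annotation, as for all genes here) encodes an ADP-ribosyltransferase held in the membrane by a lipid anchor, which carries the Dombrock blood group in humans. It had 13.2, 20.04 and 13.3 FPKM in treated KO, 15.2, 12.4 and 9.63 in untreated KO, 45.6, 41.6 and 38.8 in treated WT, and 41.8, 43.9 and 41.9 in untreated WT. Every knockout library lay below every wild-type library, while treated and untreated libraries overlapped within each genotype. On the log2(FPKM + 1) scale used for all differences here, Art4 fell by 1.40 ± 0.18 (SE) in treated KO against treated WT (limma, adjusted p = 0.00349). Against untreated WT it fell by 1.42 ± 0.18 in treated KO (limma, adjusted p = 0.00124). The agonist gave 0.30 ± 0.18 in the knockout (limma, adjusted p = 0.227) and -0.02 ± 0.18 in the wild type (limma, adjusted p = 0.987). The 95% interval of the wild-type value was -0.41 to 0.37.

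Plscr2 (chromosome 9, 92275602 to 92297752, plus strand) encodes a phospholipid scramblase, a family that moves lipids between the leaflets of the plasma membrane. It had 4.94, 4.203 and 4.48 FPKM in treated KO, 2.64, 2.69 and 5.09 in untreated KO, 50.4, 32.9 and 31.2 in treated WT, and 39.4, 23.8 and 17.8 in untreated WT. All 6 knockout libraries stood at 5.09 FPKM or less and all 6 wild-type libraries at 17.8 or more. Plscr2 fell by 2.79 ± 0.29 in treated KO against treated WT (limma, adjusted p = 0.000829), the largest of the tested differences of these genes in that comparison. It fell by 2.27 ± 0.29 against untreated WT (limma, adjusted p = 0.00126). The agonist difference was 0.35 ± 0.29 in the knockout (limma, adjusted p = 0.378, 95% interval -0.28 to 0.97) and 0.52 ± 0.29 in the wild type (limma, adjusted p = 0.481, 95% interval -0.10 to 1.15). Plscr2 has close relatives, and how the authors assigned reads shared between paralogs is not given in the sources used here.

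Enpp5 (chromosome 17, 44078813 to 44086567, plus strand) encodes a membrane protein of the ectonucleotide pyrophosphatase and phosphodiesterase family. It had 15.2, 18.0 and 16.8 FPKM in treated KO, 13.6, 10.9 and 10.1 in untreated KO, 23.8, 21.2 and 23.4 in treated WT, and 38.1, 30.2 and 27.4 in untreated WT. No 2 groups overlapped, and the order ran from untreated WT through treated WT and treated KO down to untreated KO. Within the knockout, Enpp5 rose by 0.50 ± 0.15 with the agonist (limma, adjusted p = 0.0242), while within the wild type the difference was -0.46 ± 0.15 (limma, adjusted p = 0.175). The rise in the knockout missed the criterion under 7 of 24 alternative analyses, with an adjusted p of 0.213 (limma) with sex as a covariate and 0.129 (limma) without treated KO replicate 2 and untreated KO replicate 3. Treated KO and treated WT differed by -0.43 ± 0.15 (limma, adjusted p = 0.150), and treated KO lay lower than untreated WT by -0.89 ± 0.15 (limma, adjusted p = 0.00486).

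Alcam (chromosome 16, 52248996 to 52454074, minus strand) encodes the adhesion molecule CD166, which binds CD6 and itself and is found on stem cells and their niche. It had 2.45, 4.94 and 4.92 FPKM in treated KO, 5.12, 6.17 and 3.06 in untreated KO, 6.999, 3.87 and 5.10 in treated WT, and 23.8, 9.52 and 10.4 in untreated WT. Untreated WT stood above the 3 other groups, which overlapped one another. Alcam was lower in treated KO than in untreated WT by -1.54 ± 0.35 (limma, adjusted p = 0.0195), and the value was -1.14 with the call lost when untreated WT replicate 1, the highest library, was left out. In the wild type the agonist difference was -1.21 ± 0.35, and it did not pass in the fit of all groups (limma, adjusted p = 0.122). It passed when the wild-type groups were fitted alone with the replicate number as a block (limma, adjusted p = 0.0308), where same-numbered libraries deviated together. That fit was added after seeing the data, and pairing by replicate number is not established. Differences of -0.18 ± 0.35 within the knockout and -0.32 ± 0.35 under the agonist did not pass (limma, adjusted p = 0.721 and 0.634).

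Neo1 (chromosome 9, 58874687 to 59036441, minus strand) encodes neogenin, a receptor for netrins and repulsive guidance molecules. It had 0.259, 0.826 and 0.612 FPKM in treated KO, 0.0761, 0.110 and 0.274 in untreated KO, 0.259, 0.348 and 0.305 in treated WT, and 0.415, 0.874 and 0.674 in untreated WT. It was low everywhere and lowest on average in untreated KO, which did not overlap with untreated WT, but overlapped with both treated groups. No library reached the 1 FPKM needed for testing, so Neo1 has no test. The transcript is long, and the values correspond to about 20 to 255 fragments per library at the estimated depth, against 0.00972 to 0.0125 FPKM for 3 fragments.

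Gpr183 (chromosome 14, 121952551 to 121965195, minus strand) encodes EBI2, an oxysterol receptor that positions B cells, dendritic cells and other leukocytes in lymphoid tissue. It had 0.503, 0.822 and 0.834 FPKM in treated KO, 3.03, 3.61 and 23.3 in untreated KO, 0.157, 0.227 and 0.437 in treated WT, and 1.18, 0.639 and 0.619 in untreated WT. The 3 untreated KO libraries lay above all 9 others, and replicate 3 lay far above its 2 companions. Gpr183 was the only one of the 10 genes that averaged more in untreated KO than in untreated WT, by 2.10 ± 0.51 on the log2 scale. It entered the test only through untreated KO, with 1 further library at 1 FPKM or more, so its fall from that group is no evidence apart from its level there. With the agonist it fell by 2.16 ± 0.51 in the knockout (limma, adjusted p = 0.00917), and by 1.33 ± 0.18 without untreated KO replicate 3 (limma, adjusted p = 0.000668). The call was lost with sex as a covariate (limma, adjusted p = 0.159) and with only the 6 knockout libraries in the fit (limma, adjusted p = 0.0583). Differences of 0.43 ± 0.51 between treated KO and treated WT, -0.50 ± 0.51 with the agonist in the wild type and -0.07 ± 0.51 between treated KO and untreated WT did not pass (limma, adjusted p = 0.666, 0.779 and 0.945).

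The untreated KO libraries, with the most Gpr183, had the most B lineage, myeloid, macrophage, and stromal and endothelial marker RNA. The 9 stromal and endothelial markers summed to 178 to 571 FPKM there and to at most 65.3 in any other library. Within untreated KO, replicate 3 held the most Gpr183 and the highest stromal and endothelial sum. Its macrophage sum, 938 FPKM, was the lowest of that group, and the B lineage sum was highest in replicate 2, at 4209 FPKM. The 9 myeloid markers summed to 2995 to 4371 FPKM in treated KO, 7129 to 32290 in untreated KO, 1879 to 5920 in treated WT and 1869 to 3959 in untreated WT, with the highest sum in untreated KO replicate 3. The 5 dendritic markers summed to 216 to 248 FPKM in treated KO, 137 to 158 in untreated KO, 188 to 209 in treated WT and 220 to 282 in untreated WT, sums made up mostly of Bst2. Their mean log2(FPKM + 1), which weights the 5 genes equally, was 2.23 to 2.72 in treated KO, 2.56 to 2.77 in untreated KO, 2.24 to 2.33 in treated WT and 2.2 to 2.29 in untreated WT. The part of these cells in the Gpr183 result was not tested.

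**Figure D2:**
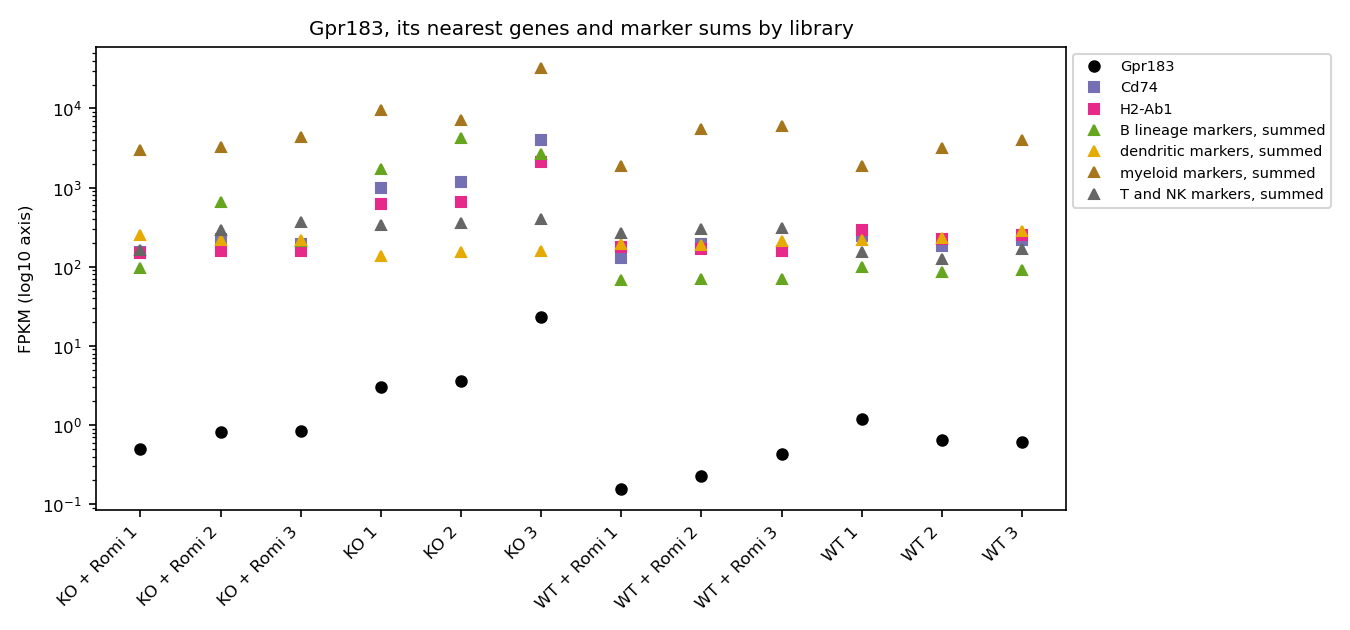
FPKM (log10 axis) of Gpr183, of Cd74 and H2-Ab1, its nearest genes over the 12 libraries, and of summed marker lists in each library, grouped as treated KO, untreated KO, treated WT and untreated WT with replicates 1 to 3 in each. Gpr183 was 3.03 to 23.3 FPKM in untreated KO, where Cd74, H2-Ab1 and the B lineage and myeloid sums were also highest, and at most 1.18 FPKM elsewhere.

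Sult1a1 (chromosome 7, 126672865 to 126676432, minus strand) encodes a phenol sulfotransferase, a cytosolic enzyme that adds sulfate to phenols and catechols. It had 5.74, 11.1 and 5.18 FPKM in treated KO, 13.1, 15.6 and 25.5 in untreated KO, 10.7, 7.77 and 7.13 in treated WT, and 164, 110 and 104 in untreated WT. The untreated WT libraries lay above all others, untreated KO came next without overlap, and both treated groups lay lowest and overlapped. Sult1a1 fell by 3.73 ± 0.30 with the agonist in the wild type (limma, adjusted p = 0.000123), the largest difference of any of the 9 tested genes in that comparison. In the knockout it fell by 1.21 ± 0.30 (limma, adjusted p = 0.0109), a call lost only with sex as a covariate among 24 alternatives (limma, adjusted p = 0.111). Treated KO and treated WT differed by -0.24 ± 0.30 (limma, adjusted p = 0.679), with a 95% interval of -0.89 to 0.41. Treated KO lay lower than untreated WT by -3.97 ± 0.30 (limma, adjusted p = 0.000103). Exons of Sult1a1 share 61 bases with Sgf29, and the library kit does not mark the strand, so reads in that stretch could come from either gene.

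Ehd3 (chromosome 17, 73804134 to 73832094, plus strand) encodes an ATPase of the EH domain family that acts in endocytic recycling. It had 5.21, 11.1 and 11.04 FPKM in treated KO, 5.65, 3.81 and 6.45 in untreated KO, 17.8, 18.6 and 18.1 in treated WT, and 7.40, 7.12 and 6.23 in untreated WT. Treated WT stood above all 9 other libraries, and the 3 other groups overlapped. Ehd3 rose by 1.28 ± 0.24 with the agonist in the wild type (limma, adjusted p = 0.0220). The call rested on all 6 wild-type libraries, since leaving out any of them gave an adjusted p of 0.0629 to 0.0957 (limma), with differences of 1.22 to 1.33. In the knockout the difference was 0.64 ± 0.24 (limma, adjusted p = 0.0652), and replicate 1 of treated KO lay within the untreated range. Treated KO and treated WT differed by -0.99 ± 0.24 without overlap, which did not pass (limma, adjusted p = 0.0664), and treated KO and untreated WT by 0.29 ± 0.24 (limma, adjusted p = 0.452).

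Nupr1 (chromosome 7, 126623249 to 126630861, minus strand, 42 kb from Sult1a1) encodes a small chromatin-associated regulator induced by cellular stress. It had 42.3, 62.4 and 60.1 FPKM in treated KO, 19.9, 17.2 and 26.04 in untreated KO, 225, 142 and 144 in treated WT, and 337, 82.9 and 121 in untreated WT. Untreated KO lay lowest, treated KO next without overlap, and both wild-type groups lay above them and overlapped. With the agonist Nupr1 rose by 1.34 ± 0.41 in the knockout (limma, adjusted p = 0.0282), which missed the criterion in 7 of 24 alternative analyses, among them that with sex as a covariate (limma, adjusted p = 0.131). Treated KO was lower than untreated WT by -1.46 ± 0.41 (limma, adjusted p = 0.0427), which missed it in 13 of the 24, and the difference was -0.88 when untreated WT replicate 1 was left out. Treated KO and treated WT differed by -1.60 ± 0.41 without overlap, which did not pass (limma, adjusted p = 0.0748). That difference passed in 5 of the 24 alternatives. Its adjusted p was 0.0400 (limma) with only the 6 treated libraries in the fit and 0.0128 (limma) without untreated WT replicate 1. The agonist difference in the wild type was 0.15 ± 0.41 (limma, adjusted p = 0.948), with a 95% interval of -0.74 to 1.04.

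Clu (chromosome 14, 65968483 to 65981547, plus strand) encodes clusterin, a secreted chaperone. It had 57.6, 133 and 76.6 FPKM in treated KO, 25.9, 29.3 and 64.7 in untreated KO, 149, 99.0 and 99.9 in treated WT, and 160, 61.7 and 104 in untreated WT. All groups overlapped with at least 1 other, and untreated KO held the 2 lowest libraries. In the knockout the agonist difference was 1.17 ± 0.41, just short of the criterion (limma, adjusted p = 0.0515), and it passed under 11 of 24 alternatives. Differences of -0.44 ± 0.41 between treated KO and treated WT, 0.17 ± 0.41 with the agonist in the wild type and -0.26 ± 0.41 between treated KO and untreated WT did not pass (limma, adjusted p = 0.579, 0.934 and 0.705).

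**Figure D3:**
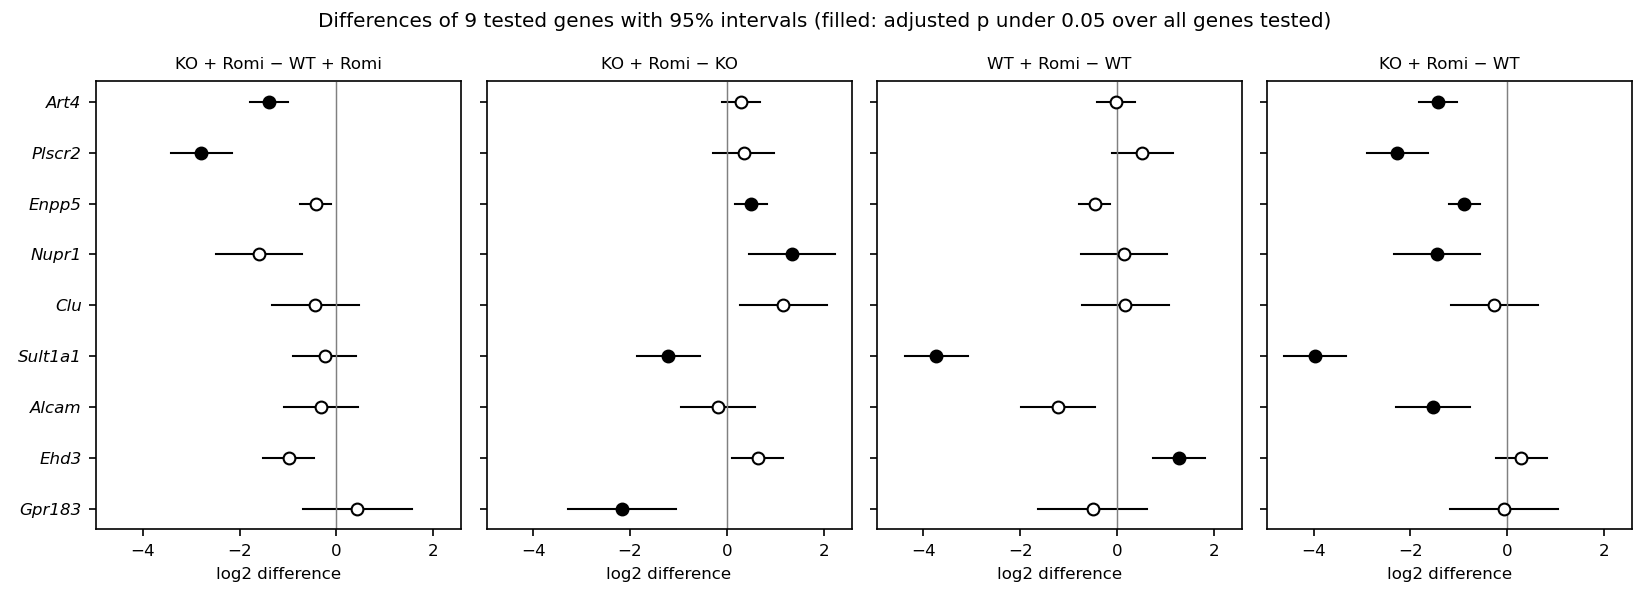
Log2 differences of log2(FPKM + 1) group means for the 9 tested genes, top to bottom as in the panel labels, in the 4 tested comparisons, each given as first group minus second; points are estimates, bars are 95% intervals and filled points have an adjusted p under 0.05 over all genes tested. Art4 and Plscr2 lie to the left against both wild-type groups, with intervals that include 0 within a genotype, while Sult1a1 lies to the left in the 3 comparisons that set the agonist against no agonist and near 0 between the treated groups.

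The comparison of treated KO with treated WT asked whether the genotypes still differed when both received the agonist. Its group means share no library with the untreated groups, but the spread per gene came from the fit of all 12 libraries. Whether its own values were in view when the genes were chosen is not recorded. Of the 9 tested genes, 2 were lower, Art4 and Plscr2, and 0 were higher, where 0.741% of all 12823 tested genes were called lower, 0.632% higher and 1.37% in either direction. At an unadjusted p under 0.05 in limma, 5 members were lower and 0 higher, beside 1705 and 834 of all tested genes. Leaving out treated KO replicate 2, alone or with untreated KO replicate 3, gave 4 lower members, against 2 with all libraries, while lower calls over all genes numbered 1235 and 1347, against 95. Both calls held under all 24 alternatives, with an adjusted p of at most 0.0339 for Art4 and 0.0122 for Plscr2 (limma). The 3 libraries of each group did not overlap for 5 lower and 1 higher of the 10 genes, against 15.2% and 9.94% of tested genes. The lower genes were Art4, Plscr2, Enpp5, Ehd3 and Nupr1, and the higher gene was Gpr183. The median difference over the 9 genes was -0.44, and over all tested genes -0.07. The 8 erythroid markers summed to 1105 to 7091 FPKM in treated KO and 206 to 412 in treated WT. B lineage and macrophage sums were also higher in treated KO, while the stem cell sums overlapped. The 6 mast and basophil markers summed to less in treated KO, 54.8 to 65.7 FPKM against 91.3 to 105. The part of cell makeup in these calls was not tested.

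The comparison of treated with untreated KO asked what the agonist did without thrombopoietin, and it shares the 3 untreated KO libraries with the contrast taken to be behind the choice of genes. Nupr1 and Enpp5 were higher, and Sult1a1 and Gpr183 were lower, which makes 2 of 9 in each direction, Gpr183 having entered the test through its level in untreated KO, where 10.7% of tested genes were called higher, 18.9% lower and 29.6% in either direction. With the agonist in the knockout, groups did not overlap for 2 higher and 2 lower of the 10 genes, the same 4, against 15.6% and 24.7% of tested genes. The median difference was 0.35, and over all tested genes it was -0.09, which became 0.07 with quantile normalization. That scaling gave 2467 genes higher and 1773 lower, and median-of-ratios scaling 1843 and 2043, against 1377 and 2420 as deposited. Quantile normalization gave 5 members higher and 2 lower. With a sex term 0 members passed in limma in either direction, and over all genes 215 were higher and 555 lower. At an unadjusted p under 0.05 that fit had 3 members higher and 2 lower, beside 1106 and 1889 of all genes. The count of higher members was 1 without untreated KO replicate 1, 0 without untreated KO replicate 2, 4 without treated KO replicate 1, and 0 without treated KO replicate 2 or 3. It was 1 without treated KO replicate 2 and untreated KO replicate 3. Over all genes, higher calls in these fits numbered 885, 906, 1661, 1300, 789 and 1155 in the same order, against 1377. B lineage and macrophage marker sums moved with this comparison, as given above, and their part in these calls was not tested.

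The comparison of treated with untreated WT asked what the agonist did where thrombopoietin was present, and it shares the 3 untreated WT libraries with that contrast. Ehd3 was higher and Sult1a1 was lower, which is 1 of 9 in each direction where 0.866% of tested genes were called higher, 0.975% lower and 1.84% in either direction. Sult1a1 passed under all 25 alternatives, with an adjusted p of at most 0.00161 (limma). Treated and untreated WT libraries did not overlap for 1 higher and 5 lower of the 10 genes, against 10.3% and 16.5% of tested genes. The count of higher members was 0 with any of the 6 wild-type libraries left out, where higher calls over all genes numbered 37 to 85, against 111. In the fit of the wild-type groups alone with the replicate block 2 members were lower, beside 472 of all genes, against 125. The median difference was -0.02 over the 9 genes and -0.04 over all tested genes. Stem cell, B lineage, macrophage, dendritic, and stromal and endothelial sums were lower in treated than in untreated WT without overlap. So was the erythroid sum, 206 to 412 FPKM against 475 to 913. The T and NK sum was higher, 263 to 305 FPKM against 124 to 168. Myeloid, megakaryocyte, and mast and basophil sums overlapped. The part of cell makeup in these calls, or in those of other ageing genes below, was not tested.

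Treated KO against untreated WT asked how far the treated knockout stood from the untreated normal state, and it shares the untreated WT libraries too. Sult1a1, Art4, Plscr2, Enpp5, Alcam and Nupr1 were lower, 6 of 9, and 0 were higher, where 7.52% of tested genes were called lower, 2.93% higher and 10.4% in either direction. At an unadjusted p under 0.05 in limma, 6 members were lower and 0 higher, beside 2620 and 1069 of all tested genes. The all-gene split was 376 higher and 964 lower as deposited and 632 and 746 with median-of-ratios scaling. Sult1a1, Art4, Plscr2 and Enpp5 passed under all 24 alternatives. Libraries of treated KO and untreated WT did not overlap for 6 lower and 0 higher of the 10 genes, against 18.0% and 8.98% of tested genes. The median difference was -1.42 over the 9 genes and -0.10 over all tested genes.

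As a description of the untreated groups, untreated KO stood below untreated WT for 8 of the 9 genes above the filter, with differences of -2.80 for Nupr1, -2.76 for Sult1a1, -2.62 for Plscr2, -1.72 for Art4, -1.43 for Clu, -1.39 for Enpp5, -1.35 for Alcam and -0.35 for Ehd3. Libraries did not overlap for 7 lower and 1 higher of the 10 genes, against 29.0% and 27.2% of tested genes, and 23.0% of tested genes were called lower, 22.1% higher and 45.1% in either direction. Set beside these, the treated KO minus treated WT values were -1.60 for Nupr1, -0.24 for Sult1a1, -2.79 for Plscr2, -1.40 for Art4, -0.44 for Clu, -0.43 for Enpp5, -0.32 for Alcam and -0.99 for Ehd3. The 4 smallest in size of these belonged to genes that differed in what the agonist went with. Enpp5 averaged 16.7 ± 1.38 FPKM in treated KO and 11.5 ± 1.80 in untreated KO, and also 22.8 ± 1.38 in treated WT and 31.9 ± 5.58 in untreated WT (SD, n = 3 each). Clu averaged 89.1 ± 39.3 FPKM in treated KO and 40.0 ± 21.5 in untreated KO, and 116 ± 28.4 in treated WT and 108 ± 49.3 in untreated WT. Sult1a1 and Alcam averaged less in treated than in untreated WT, and no more in treated than in untreated KO. Whether the genotype difference itself differed with the agonist was not tested for these genes, since it contains the contrast taken to be behind their choice.

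Over the 12 libraries, the genes with levels most like each member were found among 8533 protein-coding genes that averaged at least 5 FPKM, by Pearson's r of log2(FPKM + 1). These values describe likeness over 4 groups of shared libraries, depth and cell makeup, and carry no test. Gpr183 was most like Cd74 (r = 0.97) and H2-Ab1 (r = 0.96), which serve antigen presentation on MHC class II. In untreated KO replicate 3, the library with the most Gpr183, they stood at 3988 and 2101 FPKM. Sult1a1 was most like Ghr (r = 0.95), the growth hormone receptor, itself reported to rise in old stem cells, and Tinagl1 (r = 0.94). Ghr averaged 3.50 ± 1.07 FPKM in treated KO, 6.42 ± 3.07 in untreated KO, 4.62 ± 1.17 in treated WT and 13.1 ± 3.10 in untreated WT (SD, n = 3 each), with both untreated means above both treated means, as for Sult1a1. Plscr2 was most like Chad (r = 0.95) and Bmyc (r = 0.94), and Chad averaged 2.83 ± 1.06 FPKM in treated KO, 1.51 ± 0.104 in untreated KO, 15.6 ± 3.62 in treated WT and 9.98 ± 2.56 in untreated WT. Art4 was most like Supt3 and Trim47 (r = 0.97 each), Enpp5 like Il15ra and Tspan4 (r = 0.97 each), and Nupr1 like Lsm10 and Mphosph8 (r = 0.98 each). Ehd3 was most like Cd96 (r = 0.96) and St3gal2 (r = 0.95), Alcam like Taf3 (r = 0.95) and Btbd9 (r = 0.93), Clu like Tpgs1 (r = 0.91) and Nmi (r = 0.90), and Neo1 like Wasl (r = 0.93) and Zfp120 (r = 0.89). No member was among the genes nearest to another, as members were not candidates.

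A further 28 genes reported to rise in old stem cells were set beside the 10, of which 23 passed the filter. With the agonist in the knockout, 6 of the 23 rose and 2 fell, beside 10.7% and 18.9% of tested genes, with a median difference of 0.24 that stands beside 0.35 for the 9 tested members. Casp12, an inflammatory caspase, had 20.2, 32.4 and 31.6 FPKM in treated KO, against 8.00, 7.25 and 7.01 in untreated KO, and rose by 1.76 ± 0.18 (limma, adjusted p = 8.28e-05). Vwf, the platelet adhesion protein, had 13.8, 16.9 and 27.6 FPKM in treated KO, against 6.05, 3.41 and 3.76 in untreated KO, and rose by 1.89 ± 0.28 (limma, adjusted p = 0.000662). Slamf1, the CD150 receptor used to sort stem cells, rose by 1.53 ± 0.27 (limma, adjusted p = 0.0019), and Mllt3, a chromatin reader that maintains stem cells, by 1.23 ± 0.18 (limma, adjusted p = 0.000752). With a sex term, which the wild-type libraries alone set, Casp12, Vwf and Mllt3 passed and Slamf1 did not (limma, adjusted p = 0.0682). In these genes all treated KO libraries lay above all untreated KO libraries. Slamf1 and Mllt3 are also among the 10 stem cell markers used here. The sum of those markers was 819 to 1295 FPKM in treated KO and 465 to 632 in untreated KO. The part of stem cell content in the rise of these genes was not tested. Selp, the platelet adhesion molecule P-selectin, had 8.59, 16.0 and 23.4 FPKM in treated KO, against 13.2, 9.52 and 13.9 in untreated KO, and did not pass (0.28 ± 0.44, limma, adjusted p = 0.661).

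With the agonist in the wild type, 0 of the 23 rose in limma and 6 fell, beside 0.866% and 0.975% of tested genes, with a median of -0.65 beside -0.02 for the members. At an unadjusted p under 0.05, 2 were higher and 15 lower, beside 663 and 1045 of all tested genes. Of the 6 that fell, Runx1t1 and Wwtr1 entered the test only through untreated WT, Wwtr1 with untreated KO replicate 3 also at 1.13 FPKM. Their falls from untreated WT are no evidence apart from their level there. Between treated KO and treated WT, 1 of the 23 fell and 0 rose in limma, beside 0.741% and 0.632% of tested genes, with a median of -0.33 beside -0.44 for the members. At an unadjusted p under 0.05, 7 were lower and 1 higher, beside 1705 and 834 of all tested genes. The gene that fell was Itgb3, the β3 integrin of platelets, with 1.49, 2.50 and 2.64 FPKM in treated KO, against 11, 10.6 and 11.6 in treated WT, and a difference of -1.93 ± 0.16 (limma, adjusted p = 0.000308). Like Art4 and Plscr2 it was low in every knockout library, with 2.62, 2.15 and 2.83 FPKM in untreated KO, against 6.63, 6.52 and 7.03 in untreated WT. Aldh1a1, an aldehyde dehydrogenase that makes retinoic acid, gave -1.18 ± 0.34 there and did not pass (limma, adjusted p = 0.107). Mt1, a metallothionein, gave 2.25 ± 0.53 and did not pass either (limma, adjusted p = 0.0638), with 1458, 201 and 293 FPKM in treated KO, against 115, 86.1 and 79.0 in treated WT, and its highest library was also the treated KO library with the highest erythroid marker sum. Treated KO against untreated WT had 15 of the 23 lower and 1 higher, with a median of -1.13 beside -1.42 for the members, where 7.52% of tested genes were lower and 2.93% higher. Runx1t1, Wwtr1 and Dsg2 are among the 15. Dsg2 too entered the test only through untreated WT, so the same limit holds for it.

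Of 6 genes reported lower in old stem cells, 5 were tested. With the agonist in the knockout 3 fell and 0 rose, where 18.9% of tested genes fell and 10.7% rose. The counts were the same at an unadjusted p under 0.05 in limma, where 26.4% of tested genes fell and 15.8% rose. Blnk, a B cell adaptor, differed by -3.73 ± 0.49 (limma, adjusted p = 0.000353), Il7r, the interleukin-7 receptor, by -2.10 ± 0.40 (limma, adjusted p = 0.00279) and Satb1, a chromatin organiser of lymphoid genes, by -1.88 ± 0.30 (limma, adjusted p = 0.00101). Blnk had 2.17, 16.8 and 5.15 FPKM in treated KO, against 68.1, 159 and 72.9 in untreated KO. These 3 genes are expressed by lymphoid cells and moved with the B lineage marker sum, which holds Blnk itself, and the part of that lineage in their change was not tested. Outside untreated KO, Il7r reached 1 FPKM only in treated KO replicates 2 and 3, at 4.16 and 2.9 FPKM, so it entered the test through untreated KO. Its fall from that group is no evidence apart from its level there. Il7r was higher in treated KO than in untreated WT by 1.60 ± 0.40 (limma, adjusted p = 0.0266). With a sex term Il7r passed neither in that comparison (limma, adjusted p = 0.114) nor within the knockout (limma, adjusted p = 0.091). Blnk and Satb1 passed within the knockout with that term, which the wild-type libraries alone set. In treated KO against untreated WT, 0 of the 5 were called apart from Il7r, and 0 between the treated groups or in treated against untreated WT. At an unadjusted p under 0.05 in limma, 2 were higher and 1 lower between the treated groups, beside 834 and 1705 of all tested genes. In treated KO against untreated WT 2 were higher and 0 lower, beside 1069 and 2620. In treated against untreated WT there were 0, beside 663 and 1045. Between the untreated groups, 3 of the 5 were called higher in KO and 0 lower (limma), beside 22.1% and 23.0% of tested genes. The list was written with earlier results of these data known, so that count is a description.

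**Figure D4:**
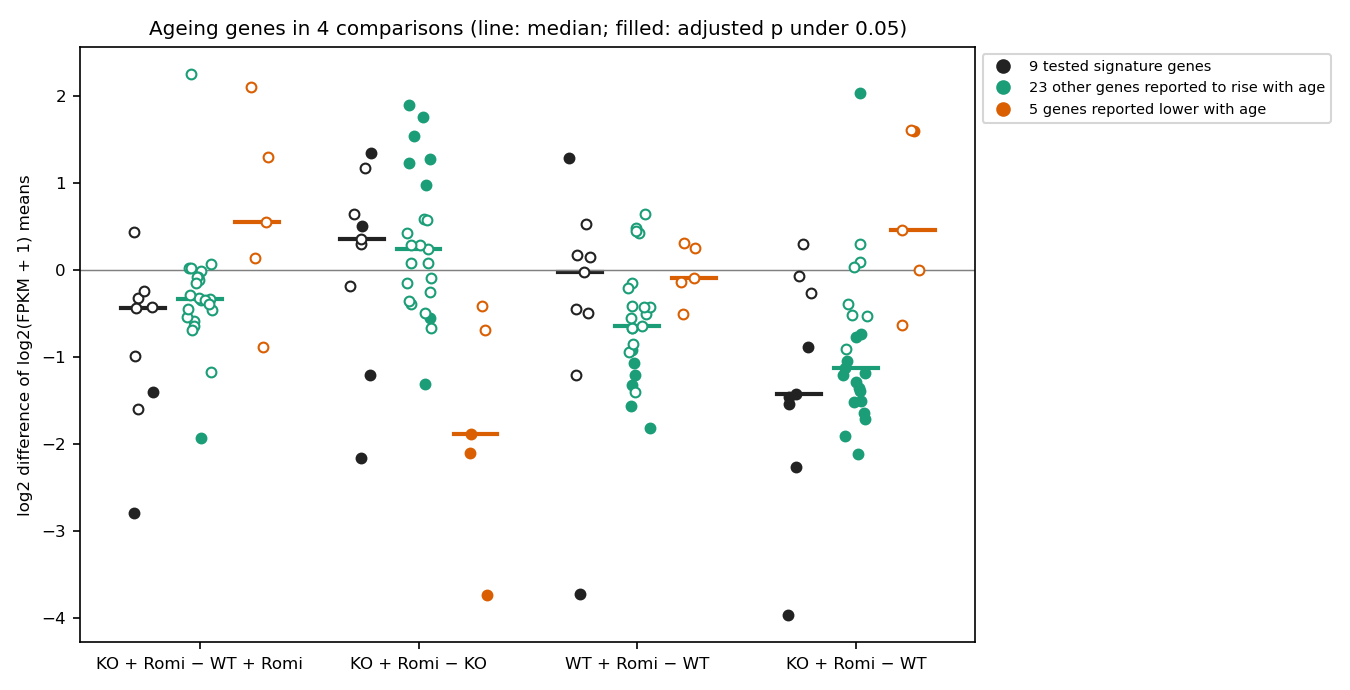
Log2 differences of the 9 tested members, 23 other genes reported to rise with age and 5 genes reported lower with age in 4 comparisons, each given as first group minus second; a point is a gene, a line is the median of its list and filled points have an adjusted p under 0.05. The members' medians were -0.44, 0.35, -0.02 and -1.42 from left to right, those of the other genes that rise with age -0.33, 0.24, -0.65 and -1.13.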

How the data were processed

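RNA of hematopoietic stem cells was sequenced in 12 libraries, 3 per group. The deposited table holds FPKM values that the authors calculated, and the submitters' processing notes name TopHat2, Cufflinks 2.2.1 and mm10 without their roles. Symbols and positions came from GENCODE M21 on that build, matching 34490 identifiers and leaving 785. Depth was estimated from the steps between low FPKM values, of which 41.3 to 52.8% under 50 fragments were whole within 0.05 in a library, so it is approximate. The search was held to 21 to 41 M fragments, since a multiple of the true depth also gives whole numbers. Floors of 3 fragments cover counting error only.

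FPKM values were converted to log2(FPKM + 1), which understates changes of low genes. Genes with at least 1 FPKM in at least 3 libraries, 12823 in all and 9 of the 10 members, were fitted with limma 3.58.1 (R 4.3.3) as 4 group means with an intensity trend. Tests were two-sided, adjusted by Benjamini-Hochberg over all tested genes in each of 4 comparisons, at 0.05. For genes other than the members, the untreated groups and the agonist effect in KO minus that in WT were tested too. An exact test of 3 libraries against 3 cannot go below p = 0.1. The members and lists were chosen with earlier results of these data known. Calls of the other ageing genes in those 2 contrasts, which hold the untreated difference, are therefore a description. Named were all members, the other ageing genes with the 4 smallest p-values in treated KO against treated WT or against untreated KO, Selp, Vwf and Slamf1, and the 2 genes nearest to each member. Other genes past the criterion that the text gives, Il7r and Satb1, were named after their values were seen. No column was left unused. The fit was tested on simulated data.

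Deviations from group means of libraries with the same replicate number correlated at 0.40, 0.12 and 0.38 between treated and untreated WT. By the criterion that each pair exceed 0.1 they pair these groups, whereas 6 of all 18 pairs did so. Y-linked RNA did not follow these pairs. It averaged 0.0221 and 18.5 FPKM in treated WT replicates 1 and 2, against 22.5 and 0.137 in untreated WT replicates 1 and 2, so pairing is not established. Alternatives changed the pseudocount (0.1, 0.5), the filter (none, 5 FPKM), scaling, trend, library weights, replicate block, a sex covariate and the libraries fitted. The fit of wild-type libraries alone with the replicate number as a block was added after seeing the data.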

Additional observations from a re-analysis of the deposited data

Results flagged for a closer look

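Enpp5 differed by 0.50 on the log2 scale with the agonist in the knockout and by -0.46 in the wild type, with every treated library above every untreated one in the knockout and below in the wild type. The difference between the 2 effects was not tested, since it contains the untreated contrast taken to be behind the choice of the gene. The agonist effect in the knockout minus that in the wild type passed limma's test over all genes, 10 higher and 2 lower among the 23 other genes reported to rise with age and 3 lower among the 5 reported lower with age, beside 709 higher and 1287 lower of 12823 tested genes. Among those named here it was -3.23 for Blnk (adjusted p = 0.0121), 1.91 for Casp12 (adjusted p = 0.00188), -2.40 for Il7r (adjusted p = 0.0164), -0.80 for Itgb3 (adjusted p = 0.0334), 1.65 for Mllt3 (adjusted p = 0.00358), -1.79 for Satb1 (adjusted p = 0.0169) and 1.45 for Vwf (adjusted p = 0.03). With a sex term 72 genes were higher and 189 lower over all genes, and of these named genes Casp12 (limma, adjusted p = 0.0323) and Mllt3 (limma, adjusted p = 0.036) passed. These lists too were written with earlier results of these data known, and the difference of effects contains the untreated contrast. The list counts are therefore a description and no evidence about the lists. Among the genes called, Dsg2 and Runx1t1 entered the test only through untreated WT, and Il7r only through untreated KO.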

How the results depend on the processing

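Calls that held under every alternative were the falls of Art4 and Plscr2 in treated KO against either wild-type group, of Sult1a1 in treated WT or treated KO against untreated WT, and of Enpp5 in treated KO against untreated WT. With a sex term 0 members were called higher and 0 lower in the knockout in limma (3 and 2 at an unadjusted p under 0.05), and the cause of the shifts given here was not tested. Member counts that moved in treated KO against treated WT were 5 lower with library weights and 4 without the 2 libraries treated KO replicate 2 and untreated KO replicate 3, against 2. With the agonist in the knockout, 2 higher became 1 with no filter, without those 2 libraries or with only the 6 libraries, 4 with median-of-ratios scaling or library weights and 5 with quantile normalization, and 2 lower became 1 at 5 FPKM or with only the 6 libraries. In the wild type, 1 higher became 0 with no filter and 2 with library weights, and 1 lower became 3 with library weights and 2 with the wild-type groups alone with the replicate block. Treated KO against untreated WT had 1 higher with library weights, whose iteration did not settle and which raised calls over all genes to 1306 higher and 3021 lower under the agonist, against 81 and 95.

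Leaving out a library gave 2 to 4 lower under the agonist, 0 to 4 higher in the knockout, 0 to 1 higher in the wild type and 4 to 6 lower in treated KO against untreated WT, and a median of -1.70 to -1.25 (-1.43 with all libraries) between the untreated groups. For the ageing genes outside the members the ranges were 0 to 1 higher and 1 to 2 lower under the agonist, 5 to 8 and 0 to 3 in the knockout, 0 to 1 and 1 to 7 in the wild type, 0 to 1 and 13 to 15 for treated KO against untreated WT, and 1 to 2 and 16 to 19 between the untreated groups (2 and 18 with all libraries). Their other shifts were, under the agonist, 1 higher with pseudocount 0.1, quantile normalization, library weights or without the 2 libraries, and 7 and 2 lower with the last pair. In the knockout, 10 were higher with library weights, and lower were 1 at 5 FPKM, with quantile normalization, without the 2 libraries or with only the 6 libraries, 4 with library weights and 0 with sex. In the wild type, higher were 1 with either scaling, 3 with library weights and 2 with only the 6 libraries or the wild-type replicate block, and lower were 16 with library weights. Over all genes, library weights gave 1596 lower in the wild type, against 125, and 2716 higher in the knockout, against 1377. For treated KO against untreated WT, higher were 0 with no filter, sex or only the 6 libraries and 3 with library weights. Between the untreated groups, 1 higher came with no filter, quantile normalization, the replicate block, without the 2 libraries or with only the 6 libraries.

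Signs turned in differences that did not pass. Alcam gave 0.027 under the agonist with library weights, and in the knockout 0.026 with quantile normalization and -0.42 to 0.076 with a library left out. Art4 gave -0.045 in the knockout without the 2 libraries, and in the wild type 0.020 with median-of-ratios scaling and -0.081 to 0.034 with a library left out. With a library left out, Clu spanned -0.18 to 0.50 and Nupr1 -0.28 to 0.72 in the wild type, and against untreated WT Clu spanned -0.61 to 0.066 and Gpr183 -0.14 to 0.072, where Gpr183 gave 0.13 with library weights and 0.064 with sex. The replicate block over all groups changed no member's call, with 2 lower under the agonist, 2 higher and 2 lower in the knockout and 1 of each in the wild type.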

Other observations

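Single libraries stood high for many members at once. In treated KO, replicate 2 held the highest value of 8 of the 10 genes, and of 55.5% of all tested genes. In untreated KO, replicate 3 held the highest value of 7 of the 10, and of 27.7% of tested genes. Replicate 1 was highest for 7 of the 10 in treated WT, with 37.6% of tested genes, and for 8 of the 10 in untreated WT, with 37.1% of tested genes. No test was made of these counts.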
